A study of Homo sapiens with 21 samples.

Results

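NGFR, NTRK2, NTRK3, SORT1, BDNF and NTF3 encode receptors and ligands of the neurotrophin system, and their expression was followed in islet cells derived from stem cells of 4 genotypes. These 6 genes were taken by symbol from the 62700 genes of the count table. NGFR was chosen by its rise in ISL1-null cells, measured in an earlier analysis of the same libraries, and the other 5 were listed with it. The choice set no numeric threshold, so no gene lies just inside or just outside it. All 6 genes passed the filter on low counts.

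The cells came from H1, a human embryonic stem cell line, and were either unedited (WT) or labelled as homozygous knockouts of the transcription factor genes ISL1, PAX6 or PDX1 (ISL1-/-, PAX6-/-, PDX1-/-). Every culture received a lentivirus on day 11 that carried BFP, a blue fluorescent protein, either alone (the BFP vector) or behind ISL1 in the construct ISL1-IRES2-BFP (the ISL1 vector), and BFP-positive cells were sorted on day 18. The 8 groups hold 21 libraries labelled as biological replicates, with 2 in WT under either vector and in PDX1-/- under the ISL1 vector, and 3 in each of the remaining 5 groups. Whether an edited line is 1 clone, where its gene was cut and which promoter drives the vector are not given in the sources used here.

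Neurotrophins are secreted growth factors that keep neurons alive, guide their growth and strengthen synapses. They are made as proneurotrophins and cleaved to mature forms. Mature forms signal through the Trk receptor tyrosine kinases, with TrkB (NTRK2) binding BDNF and NT-4 and TrkC (NTRK3) binding NT-3, the product of NTF3. All of them also bind p75NTR (NGFR), a receptor without kinase activity, which pairs with sortilin (SORT1) to bind proneurotrophins. In the pancreas the system is best known from the innervation of islets.

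Total counts were from 36.8 M to 60.2 M per library, and levels are given in CPM, the count divided by the scaled library size in M. ISL1, the targeted gene of the ISL1-/- line, was from 71.6 to 96.8 CPM in the 6 ISL1-/- libraries. In the 4 WT libraries it was from 306 to 519 CPM. With BFP, ISL1 was also below WT without overlap in PAX6-/- (133 to 236 CPM) and in PDX1-/- (132 to 173 CPM). The PDX1-/- difference was called (-1.43, SE 0.39, edgeR adjusted p 0.0254) and that of PAX6-/- was not (-1.10, SE 0.39, edgeR adjusted p 0.112). ISL1 did not separate the vectors, with 337 and 361 CPM in WT with ISL1 inside the range of WT with BFP (306 and 519 CPM). PAX6 in PAX6-/- and PDX1 in PDX1-/- were not called lower than in WT with either vector in edgeR's quasi-likelihood test (adjusted p from 0.541 to 0.855). PDX1 in PDX1-/- with BFP was from 103 to 116 CPM, above the 80.0 to 102 CPM of WT with BFP. A count over a whole gene may not report a small edit. Genotypes and vectors are therefore those of the labels. A pair of libraries stood apart, PAX6-/- with ISL1 replicate 3 and PDX1-/- with ISL1 replicate 4, with 3.16% and 3.84% of counts from mitochondrial genes against 1.28% to 1.93% in the other 19. Replicate numbers are those of the sample descriptions. The endocrine cell genes CHGA, CHGB, SCG2, SCG3, INSM1, NEUROD1, RFX6 and PCSK1N were counted in every library, CHGA with at least 538829 reads. The hormone genes INS, GCG, SST, PPY and GHRL differed more, with a sum of 43599 to 57194 CPM in WT with BFP. With BFP they summed to 1837 to 2504 CPM in ISL1-/-, 3342 to 4504 CPM in PAX6-/- and 15317 to 19938 CPM in PDX1-/-. With the ISL1 vector the sums were 38361 to 43036 CPM in WT, 4131 to 7901 CPM in ISL1-/- and 2937 to 18533 CPM in PAX6-/-. The 2 libraries of PDX1-/- with ISL1 lay far apart, at 12138 and 132322 CPM.

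Promoter stretches are shown for the 3 members whose levels passed a test in the PDX1-/- line, since ISL1, PAX6 and PDX1 all carry a homeodomain, whose sites share the core TAAT. The sequences are from RefSeq on GRCh38.p14 and run 5′ to 3′ along the gene's strand up to a transcription start, with exon bases left out. Capitals mark TAAT on either strand, so that TAAT and its reverse complement ATTA both count.
NTRK2 (chr9:84701355-84701604, plus strand): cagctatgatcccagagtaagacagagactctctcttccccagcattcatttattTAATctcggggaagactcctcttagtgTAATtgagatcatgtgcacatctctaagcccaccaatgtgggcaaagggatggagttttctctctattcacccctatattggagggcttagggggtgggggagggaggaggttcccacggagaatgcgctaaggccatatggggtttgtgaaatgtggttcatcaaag
NTRK3 (chr15:88256792-88256989, minus strand): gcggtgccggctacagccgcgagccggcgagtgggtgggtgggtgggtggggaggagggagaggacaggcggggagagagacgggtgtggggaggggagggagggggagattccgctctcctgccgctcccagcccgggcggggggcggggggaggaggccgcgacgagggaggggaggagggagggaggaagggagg
NTF3 (chr12:5431858-5432107, plus strand): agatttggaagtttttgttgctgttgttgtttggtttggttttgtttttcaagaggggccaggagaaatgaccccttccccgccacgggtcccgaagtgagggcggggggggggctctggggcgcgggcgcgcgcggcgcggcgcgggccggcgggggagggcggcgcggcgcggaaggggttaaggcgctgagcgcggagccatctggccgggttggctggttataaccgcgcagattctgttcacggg
The NTRK2 stretch holds TAAT 2 times and is 48.4% G and C, whereas the NTRK3 stretch (76.3%) and the NTF3 stretch (66.4%) hold none. Over 250 bases TAAT is present on either strand in 47.4% of 35116 RefSeq entries, and over the 198 bases available for NTRK3 in 43.3%. The median entry is 58% G and C. The absence of these letters describes this window only, and a match is not a binding site. The NTRK2 stretch lies inside the gene, which starts at 84668375, because the windows of its other entries begin in exon bases. The NTRK3 and NTF3 stretches lie directly before the first base of their genes, so the stretches are not alike in position. NTRK2 and NTF3 have further starts in the table, and 5 of the 6 members have an entry. NGFR has none.

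NGFR, the gene of p75NTR (ENSG00000064300.9, GRCh38 chromosome 17, 49495293 to 49515008, plus strand), was high in ISL1-/- cells and low everywhere else. It was at 14.1, 14.2 and 21.0 CPM in the 3 libraries of ISL1-/- with BFP. In WT with BFP it was at 1.12 and 0.453 CPM. The groups did not overlap, and the difference was 4.36 on the log2 scale (SE 0.91). This contrast chose the gene, so it is described and not tested. In PAX6-/- with BFP the values were 0.996, 1.98 and 2.63 CPM, and in PDX1-/- with BFP they were 1.39, 0.304 and 0.109 CPM, the last from 5 reads. All 3 ISL1-/- libraries with BFP stood above all 6 of these, by 3.13 (SE 0.71) over PAX6-/- and 4.77 (SE 0.78) over PDX1-/- on the log2 scale, again without a test because the same libraries chose the gene.

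The wording of the choice named ISL1-null cells but no vector, so the same contrasts with the ISL1 vector are described without a test as well. There NGFR was at 15.9, 13.2 and 29.7 CPM in ISL1-/-, with replicate 3 the highest of all 21 libraries. WT with ISL1 had 1.28 and 1.31 CPM, so the groups did not overlap, and the difference was 3.91 on the log2 scale (SE 0.88, 15.1-fold). PAX6-/- with ISL1 had 0.582, 2.00 and 0.315 CPM, and PDX1-/- with ISL1 had 0.529 and 0.207 CPM. NGFR in ISL1-/- lay above all 5 of these, by 4.32 (SE 0.75) over PAX6-/- and by 5.67 (SE 0.99) over PDX1-/-.

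The vector effect on NGFR was called in no genotype. It was 0.25 on the log2 scale in ISL1-/- (SE 0.65) and 0.70 in WT (SE 0.87), with an adjusted p of 1 in edgeR for both, although the 2 WT groups did not overlap. In PAX6-/- it was -0.93 (SE 0.69, edgeR adjusted p 0.600) and in PDX1-/- -0.64 (SE 0.87, edgeR adjusted p 0.647), with overlap in both. Across the 8 groups its mean ran from 19.6 CPM in ISL1-/- with ISL1 to 0.368 CPM in PDX1-/- with ISL1, a ratio of 53.2. In that order the only neighbours without overlap were ISL1-/- with BFP (16.4 CPM ± 3.95, SD, n = 3) and PAX6-/- with BFP (1.87 ± 0.822, SD, n = 3).

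p75NTR also marks neural crest and Schwann cells, and basal epithelial and mesenchymal cells can carry it. The neural crest and Schwann genes SOX10, FOXD3, S100B and CDH19 summed to 0.0354 to 0.124 CPM in ISL1-/- with BFP and to 0.0302 to 0.110 CPM in WT with BFP. CDH19 had no read in any library, SOX10 reached 11 reads and FOXD3 9. Only 1 gene of this list, S100B, could be tested, and it was not called in ISL1-/- with either vector. Basal epithelial genes (TP63, KRT5, KRT14, KRT15) summed to 6.45 to 8.79 CPM in ISL1-/- with BFP against 6.98 to 8.37 CPM in WT. The 8 mesenchymal genes COL1A1, COL1A2, COL3A1, PDGFRA, PDGFRB, DCN, LUM and THY1 summed to 138 to 352 CPM in ISL1-/- with BFP and to 220 to 1236 CPM in WT with BFP. With the ISL1 vector they summed to 114 to 205 CPM in ISL1-/- and to 1631 to 1879 CPM in WT, without overlap. In edgeR 0 of the 8 were called with either vector, with 0 (BFP) and 5 (ISL1) at an unadjusted p under 0.05. DESeq2 called 3 lower with the ISL1 vector, and limma voom 5 lower and 1 higher. With BFP DESeq2 called 0 and limma voom 1 higher. The part of these cells in the NGFR values was not tested. In sorted bulk RNA, more cells that carry NGFR and more NGFR RNA per cell cannot be told apart. NGFR exons share bases with 2 genes on the other strand, NGFR-AS1 and ENSG00000279036, which held at most 1 and 2 reads. The shared parts are 202 bases (4.88% of the NGFR exon bases) and 924 bases (22.3%). What they change in the NGFR counts was not tested.

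**Figure D1:**
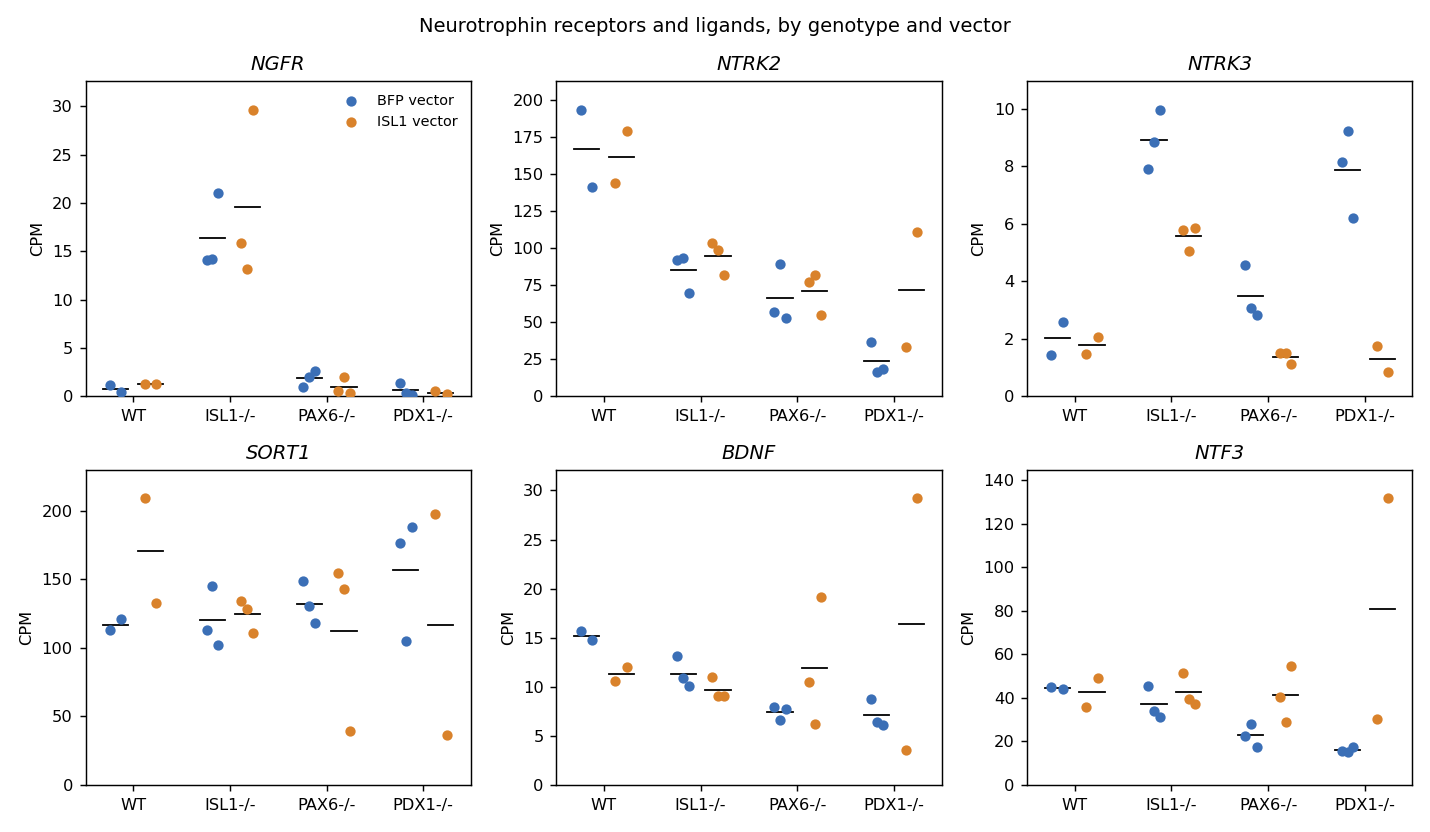
Levels of the 6 genes in CPM (linear axes from 0) by genotype, with a point per library and a black line at each group mean (blue, BFP vector; orange, ISL1 vector). NGFR is raised in all 6 ISL1-/- libraries, from 13.2 to 29.7 CPM, and PDX1-/- with ISL1 replicate 4 is the highest point for BDNF and NTF3.

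NTRK2, the gene of TrkB (ENSG00000148053.18, chromosome 9, 84668375 to 85095751, plus strand), had its highest level in WT and was lower in every knockout library than in any WT library. WT with BFP had 193 and 141 CPM and WT with ISL1 had 144 and 179 CPM. PDX1-/- with BFP was lowest, with 36.3, 16.0 and 18.4 CPM. The fall from WT to PDX1-/- with BFP was -2.83 on the log2 scale (SE 0.42, 7.09-fold lower, edgeR adjusted p 0.00057), where 9.68% of all genes were called, and it was kept in all 29 alternative fits. In a fit without a library of a group of 2, the other is a lone sample that is assumed to vary like the other groups. That holds for PDX1-/- with ISL1 wherever its replicate 2 or 4 is left out below.

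The other knockouts were intermediate. NTRK2 was at 91.9, 93.4 and 69.3 CPM in ISL1-/- with BFP and at 57.0, 89.3 and 52.9 CPM in PAX6-/- with BFP. Both groups lay below WT with BFP without overlap, yet neither passed the test, at -0.98 (SE 0.41, edgeR adjusted p 0.187; 5.59% of all genes called) and -1.33 (SE 0.41, edgeR adjusted p 0.0662; 5.51% called). The ISL1-/- difference passed under 4 alternatives: in edgeR with the block for the description number (adjusted p 0.0169), on the compared groups alone (0.00369) and without both libraries that stood apart (0.0204), and under limma voom (0.00449). The PAX6-/- difference passed under 10: those same 4, no filter, DESeq2, and leaving out PAX6-/- with ISL1 replicate 3, PDX1-/- with BFP replicate 1, or PDX1-/- with ISL1 replicate 2 or 4 (adjusted p from 0.000145 under limma voom to 0.0491 in edgeR). NTRK2 was higher in ISL1-/- than in PDX1-/- with BFP by 1.85 (SE 0.38, edgeR adjusted p 0.00813; 5.07% of all genes called), a call lost without PDX1-/- with BFP replicate 2 or 3 (up to 0.0614 in edgeR). It was higher in PAX6-/- than in PDX1-/- with BFP by 1.50 (SE 0.38, edgeR adjusted p 0.0367; 3.04% called), and that call was lost in 11 of the 21 fits that left out a library (up to 0.201 in edgeR).

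With the ISL1 vector the NTRK2 values were 103, 98.7 and 82.0 CPM in ISL1-/-, and 77.0, 81.6 and 54.8 CPM in PAX6-/-. PDX1-/- with ISL1 had 33.1 CPM in replicate 2 and 111 CPM in replicate 4, the latter a library that stood apart. None of the 3 knockouts differed from WT with ISL1 by the test, at -0.77 (SE 0.41) for ISL1-/-, -1.18 (SE 0.41) for PAX6-/- and -1.17 (SE 0.46) for PDX1-/-, with edgeR adjusted p from 0.128 to 0.365. The share of all genes called was 3.72% for ISL1-/-, 3.56% for PAX6-/- and 0.634% for PDX1-/-. Without PDX1-/- with ISL1 replicate 4, which leaves that arm a lone sample, its NTRK2 difference was -2.28 (edgeR adjusted p 0.0136), and it also passed under the description block and without both libraries that stood apart, where the same sample is alone. The PAX6-/- difference passed under 5 alternatives, namely the description block, limma voom, without both libraries, and without PDX1-/- with ISL1 replicate 2 or 4 (adjusted p from 0.00517 under limma voom to 0.0387 in edgeR). The ISL1-/- difference passed on the compared groups alone (edgeR adjusted p 0.00340) and under limma voom (adjusted p 0.0201).

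NTRK3, the gene of TrkC (ENSG00000140538.17, chromosome 15, 87859751 to 88256791, minus strand), was low in all groups and moved with both genotype and vector. With BFP it was at 7.90, 8.84 and 9.97 CPM in ISL1-/-, and at 8.14, 9.22 and 6.21 CPM in PDX1-/-. WT with BFP had 1.45 and 2.60 CPM, below both. The rises over WT were 2.14 (SE 0.35, 4.41-fold, edgeR adjusted p 0.00145) in ISL1-/- and 1.96 (SE 0.35, 3.90-fold, edgeR adjusted p 0.00208) in PDX1-/-. These comparisons share the 2 WT libraries, and both calls were lost without WT with BFP replicate 1 (edgeR adjusted p 0.0515 and 0.0619). PAX6-/- with BFP, at 4.56, 3.07 and 2.82 CPM, lay between WT and the other knockouts. It did not differ from WT by the test (0.79, SE 0.34, edgeR adjusted p 0.202), and without both libraries that stood apart (edgeR adjusted p 0.0434) or under limma voom (adjusted p 0.0208) it did. It was lower than PDX1-/- by -1.17 (SE 0.29, edgeR adjusted p 0.0328), and NTRK3 was higher in ISL1-/- than in PAX6-/- by 1.35 (SE 0.29, edgeR adjusted p 0.0147; 2.46% of all genes called). Each of these 2 calls was lost without any of 4 libraries. For the first these were replicates 2 and 3 of PAX6-/- and 1 and 2 of PDX1-/- (edgeR adjusted p up to 0.162), for the second replicates 2 and 3 of each group (up to 0.0984 in edgeR). The first was also lost without the filter (edgeR adjusted p 0.0664).

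In the libraries with the ISL1 vector NTRK3 was raised in ISL1-/- alone among the knockouts. It was at 5.77, 5.07 and 5.85 CPM there, against 1.47 and 2.06 CPM in WT, 1.49, 1.50 and 1.11 CPM in PAX6-/- and 1.76 and 0.859 CPM in PDX1-/-. The ISL1-/- libraries overlapped with none of the others. The difference was 1.65 over WT (SE 0.34, edgeR adjusted p 0.0116), a call lost without WT with ISL1 replicate 1 or 2 (up to 0.199 in edgeR). It was 2.02 over PAX6-/- (SE 0.30, edgeR adjusted p 0.000962; 2.28% of all genes called) and 2.07 over PDX1-/- (SE 0.35, edgeR adjusted p 0.00416; 2.9% called), and no single library ended these. The PDX1-/- difference was lost on the compared groups alone and under limma voom (adjusted p 0.317 and 0.999).

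**Figure D2:**
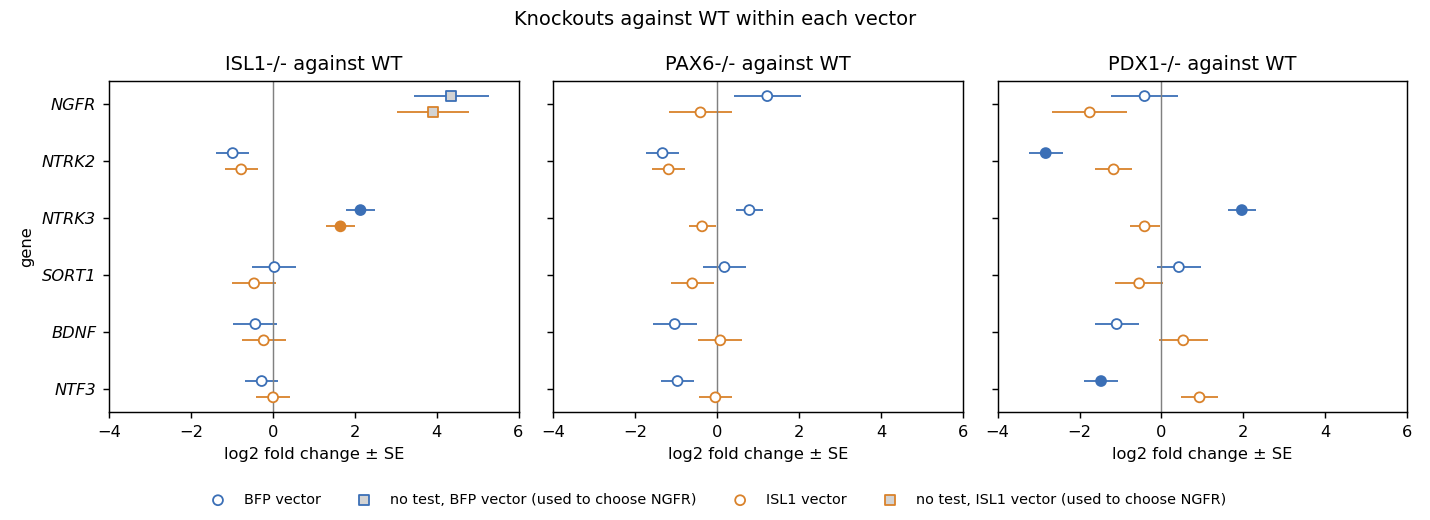
Log2 fold change of each gene between a knockout and WT within a vector (blue, BFP; orange, ISL1), with bars of ± SE. Filled points have an edgeR adjusted p under 0.05, open points do not, and the grey squares are NGFR in ISL1-/-, the contrasts that chose it, at 4.36 and 3.91 with no test. NTRK2 lies left of zero in every panel, with -2.83 in PDX1-/- with BFP filled.

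The vector changed NTRK3 in PDX1-/- cells, from the BFP values of 6.21 to 9.22 CPM to 1.76 and 0.859 CPM with ISL1. The change was -2.56 on the log2 scale (SE 0.36, 5.91-fold lower, edgeR adjusted p 0.000445), in a comparison where 12.5% of all genes were called. Without PDX1-/- with ISL1 replicate 4 it was -2.15 (edgeR adjusted p 0.00631), with replicate 2 then a lone sample whose spread is taken from the other groups. It was lost when only these 2 groups were fitted and under limma voom (adjusted p up to 0.589). In PAX6-/- the change was -1.34 (SE 0.30, edgeR adjusted p 0.0671; 0.355% of all genes called), and the groups did not overlap. With a block for the replicate number of the descriptions, whose pairs deviated together in this genotype, it was -1.35 (edgeR adjusted p 0.0184). With a block for the number in the titles, which differs only in other groups, it was -1.34 (edgeR adjusted p 0.0866). The PAX6-/- difference also passed without PDX1-/- with ISL1 replicate 2 or 4 (edgeR adjusted p 0.0135 and 0.0125), without both libraries that stood apart (0.0153 in edgeR), in DESeq2 (adjusted p 0.00122) and under limma voom (adjusted p 0.00552). In ISL1-/- NTRK3 also had lower values with the ISL1 vector in all 3 libraries, at -0.68 (SE 0.29, edgeR adjusted p 0.538; 0.382% of all genes called), which passed on the compared groups alone (edgeR adjusted p 0.0268) and under limma voom (adjusted p 0.0226). In WT the change was -0.19 (SE 0.36, edgeR adjusted p 1; 0.027% called). The vector effect in PDX1-/- minus that in WT was -2.37 (SE 0.50, edgeR adjusted p 0.0286; 1.19% of all genes called). That call was lost without any of 7 libraries or under 3 other fits (adjusted p up to 0.566). The same difference was called for no member in ISL1-/- or PAX6-/-, where 0.00386% and 0% of all genes were called. In PAX6-/- that 0 from edgeR stood beside 7 genes called by DESeq2 and 136 by limma voom. At an unadjusted p under 0.05 in edgeR were 916 of 25884 genes, a smaller share than the 0.05 expected with no difference. NTRK3 was the only member among them (-1.15, SE 0.47, edgeR adjusted p 0.894).

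Enterochromaffin genes differed in some of the same contrasts as NTRK3. TPH1, FEV, SLC18A1, LMX1A and DDC, which serve serotonin synthesis and storage or its control, summed to 844 to 980 CPM in WT with BFP. They summed to 2161 to 2908 CPM in ISL1-/- and 3583 to 4234 CPM in PDX1-/- with BFP, with 4 and 5 of the 5 called higher than WT, where 5.59% and 9.68% of all genes were called. With the ISL1 vector in PDX1-/- the sum was 1274 to 1420 CPM, and 4 of 5 were called lower than with BFP, where 12.5% of all genes were called. In PAX6-/- with BFP the sum was 1309 to 2122 CPM, with 1 of 5 called higher than WT (5.51% of all genes called). In PAX6-/- with ISL1 it was 597 to 1274 CPM, with 1 of 5 called lower than with BFP (0.355% of all genes). ISL1-/- with ISL1 had 996 to 1264 CPM, with 1 of 5 called lower than with BFP (0.382% of all genes). Between ISL1-/- and PDX1-/- with the ISL1 vector 0 of 5 were called in edgeR (2.9% of all genes). With that vector 1 of 5 was called higher in ISL1-/- than in WT (3.72%) and 1 of 5 than in PAX6-/- (2.28%). With BFP 0 of 5 were called between ISL1-/- and PAX6-/- (2.46%), and 3 of 5 were lower in PAX6-/- than in PDX1-/- (3.04%). For the vector effect in PDX1-/- minus that in WT 0 of 5 were called (1.19%). WT with ISL1 had 556 to 590 CPM. The part of cells of this type in the NTRK3 result was not tested.

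SORT1, the gene of sortilin (ENSG00000134243.12, chromosome 1, 109309568 to 109397918, minus strand), was the most even of the 6. Its group means ran from 112 to 171 CPM, a ratio of 1.52, and all neighbouring groups overlapped. WT with BFP had 113 and 121 CPM and WT with ISL1 had 209 and 133 CPM. These WT groups did not overlap, with a vector effect of 0.55 (SE 0.59). ISL1-/- with BFP had 113, 145 and 102 CPM, and ISL1-/- with ISL1 had 135, 129 and 111 CPM. The 2 lowest values of all 21 libraries, 39.0 CPM in PAX6-/- with ISL1 replicate 3 and 36.6 CPM in PDX1-/- with ISL1 replicate 4, belong to the libraries that stood apart. The other libraries of PAX6-/- with ISL1 had 154 and 143 CPM, and the other of PDX1-/- with ISL1 had 197 CPM. In PAX6-/- with BFP it was from 118 to 149 CPM and in PDX1-/- with BFP from 105 to 189 CPM. No comparison called SORT1 on all libraries, and its unadjusted p in edgeR was at least 0.240. Its difference from WT with BFP was 0.04 (SE 0.53) in ISL1-/-, 0.18 (SE 0.54) in PAX6-/- and 0.42 (SE 0.54) in PDX1-/-. Without PDX1-/- with ISL1 replicate 2, the vector effect on SORT1 in PDX1-/-, which was -0.42 (SE 0.54), became -2.11 (edgeR adjusted p 0.00778). It was 0.33 without replicate 4 (0.865 in edgeR) and 0.36 without both libraries that stood apart (0.488 in edgeR), so its direction turned with the library left out.

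Of the ligands, NTF3, the gene of NT-3 (ENSG00000185652.12, chromosome 12, 5432108 to 5521536, plus strand), was lowest in PDX1-/- with BFP. It was at 15.5, 15.3 and 17.4 CPM there, against 45.1 and 44.1 CPM in WT with BFP. The difference of -1.48 (SE 0.41, 2.78-fold lower) had an edgeR adjusted p of 0.0288, and it was lost when any of these 5 libraries was left out (up to 0.156 in edgeR). PAX6-/- with BFP had 22.6, 28.2 and 17.6 CPM and lay below WT without overlap, at -0.97 (SE 0.41, edgeR adjusted p 0.197). Without both libraries that stood apart, or without PDX1-/- with ISL1 replicate 2 or 4, that difference passed (edgeR adjusted p from 0.00293 to 0.0208), as it did with the description block and on the compared groups alone (0.0322 and 0.0125 in edgeR) and under limma voom (adjusted p 0.00152). ISL1-/- with BFP had 45.5, 34.2 and 31.2 CPM and overlapped with WT (-0.27, SE 0.41).

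Under the ISL1 vector NTF3 was at 36.0 and 49.1 CPM in WT, 51.3, 39.6 and 37.4 CPM in ISL1-/- and 40.6, 28.8 and 54.5 CPM in PAX6-/-. PDX1-/- had 30.2 CPM in replicate 2 and 132 CPM in replicate 4. Over PDX1-/- with BFP this was a rise of 2.34 (SE 0.41, 5.05-fold, edgeR adjusted p 0.00235). It was 0.92 without replicate 4 and 0.94 without both libraries that stood apart, with a lone library of PDX1-/- with ISL1 left in either fit. On all libraries the vector effect on NTF3 in PDX1-/- minus that in WT was 2.40 (SE 0.61, edgeR adjusted p 0.0649). It passed without the filter (edgeR adjusted p 0.0148), in DESeq2 (adjusted p 0.00750) and without PAX6-/- with ISL1 replicate 3 or PDX1-/- with ISL1 replicate 2 (edgeR adjusted p up to 0.0387). NTRK2 also rose in this contrast, by 1.61 (SE 0.41, edgeR adjusted p 0.0182), and by 0.49 without replicate 4, which did not pass (edgeR adjusted p 0.670). The NTRK2 call was also lost without PDX1-/- with BFP replicate 2 or 3. Both calls were lost with the description block (edgeR adjusted p 0.229 for NTF3 and 0.779 for NTRK2), on the compared groups alone (0.256 and 0.322 in edgeR) and under limma voom (adjusted p 0.422 and 0.714).

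BDNF, whose product is the main ligand of TrkB (ENSG00000176697.20, chromosome 11, 27654893 to 27722058, minus strand), passed no test as fitted on all libraries. It was at 15.6 and 14.8 CPM in WT with BFP and at 13.1, 10.8 and 10.0 CPM in ISL1-/- with BFP. PAX6-/- with BFP had 7.93, 6.64 and 7.70 CPM, and PDX1-/- with BFP had 8.77, 6.45 and 6.14 CPM. Both groups lay below WT with BFP without overlap, as did ISL1-/-. The differences from WT were -0.42 (SE 0.53, edgeR adjusted p 0.756), -1.03 (SE 0.53, edgeR adjusted p 0.312) and -1.09 (SE 0.53, edgeR adjusted p 0.239), in that order. Without both libraries that stood apart, the last 2 passed (edgeR adjusted p 0.00151 and 0.000701). They also passed without PDX1-/- with ISL1 replicate 2 or replicate 4 alone (edgeR adjusted p from 0.0218 to 0.0426), on the compared groups alone (up to 0.00466 in edgeR) and under limma voom (adjusted p up to 0.00341), and the PDX1-/- difference also with the description block (edgeR adjusted p 0.0366).

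Under the ISL1 vector BDNF was at 10.6 and 12.0 CPM in WT, 11.0, 9.03 and 9.02 CPM in ISL1-/-, and 10.5, 6.19 and 19.1 CPM in PAX6-/-. PDX1-/- had 3.56 CPM in replicate 2 and 29.2 CPM in replicate 4, the lowest and the highest of all libraries. The high values of PAX6-/- and PDX1-/- are those of the libraries that stood apart. The vector effect on BDNF in PDX1-/- was 1.20 (SE 0.53, edgeR adjusted p 0.139), and it was -0.99 without replicate 4 (0.297 in edgeR) and 2.02 without replicate 2 (0.000484 in edgeR), so its direction depends on which of the 2 libraries is used. BDNF shares 988 exon bases (12.8% of its own) with the antisense gene BDNF-AS, which held 84 to 262 reads. How reads from the shared bases were assigned is not given in the sources used here. What they change in the BDNF counts was not tested.

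**Figure D3:**
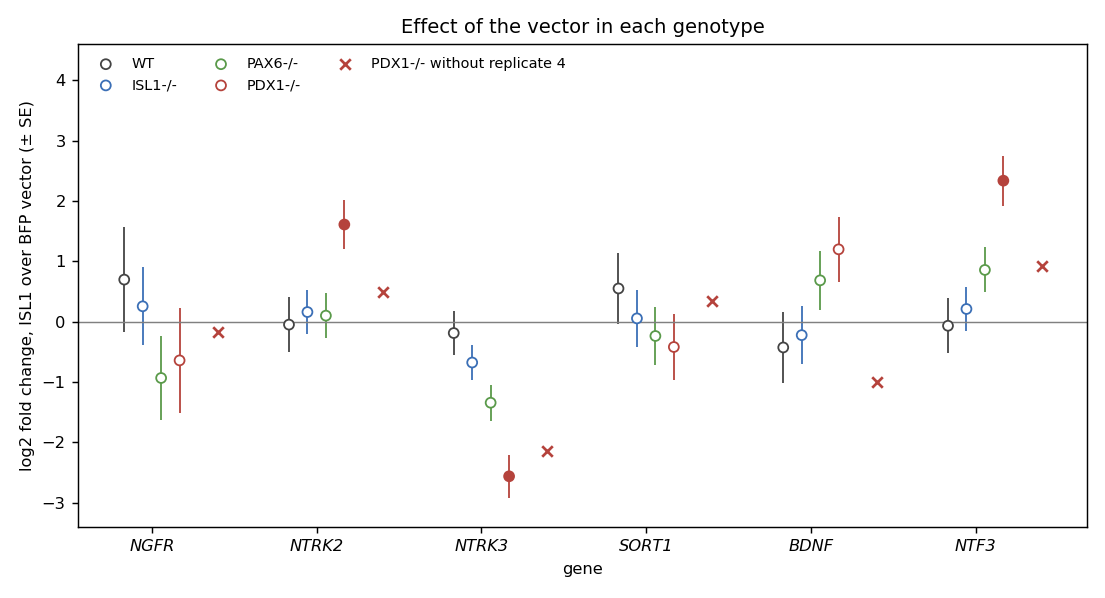
Log2 fold change of the ISL1 vector over the BFP vector for each gene in each genotype, with bars of ± SE; filled points have an edgeR adjusted p under 0.05 and crosses give PDX1-/- without its replicate 4. With the lone library that is left, NTRK3 in PDX1-/- is at -2.15, while NTF3 drops from 2.34 to 0.92 and BDNF from 1.20 to -0.99.

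Levels between genes were compared per kilobase of all exon bases in the deposited table. In WT with BFP these levels were 15.3 CPM per kilobase for NTF3, 12.8 for SORT1, 5.04 for NTRK2, 1.96 for BDNF, 0.190 for NGFR and 0.0756 for NTRK3. In ISL1-/- with BFP NGFR was at 3.97 and NTRK2 at 2.56 CPM per kilobase. NTRK2 and NTRK3 have many exon bases that a single transcript does not use. With the longest coding transcript of each gene instead, a length chosen after seeing the data, NGFR was at 4.81 and NTRK2 at 9.83 CPM per kilobase in ISL1-/- with BFP, so the order of the pair depends on the length used. The order of NTRK2 and SORT1 in WT also turned, to 19.4 and 16.6 CPM per kilobase. Counts per gene do not separate full-length Trk receptors from the truncated forms without a kinase domain.

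The genes closest to each member were ranked by Pearson's r of log2 CPM over the 21 libraries among 17744 genes. For NGFR they were TRAF2 and E2F1 (r = 0.905 and 0.905), STRIP2, PYCR3 (both 0.902) and IRS4 (0.901). NTRK3 was closest to PALM2AKAP2 (0.937), PRPS2 (0.934) and STAC (0.924), and NTRK2 to SRPX (0.932), MOB3B (0.923) and EFHD1 (0.921). For SORT1 they were CPD (0.989), ATP13A3 (0.977) and DENND4C (0.973). NTF3 was closest to APOE (0.964), SNHG1 (0.962) and APOC1 (0.961), and BDNF to ROR1 (0.924), SPINK4 (0.881) and EIF2S1 (0.877). Libraries of a group share their genotype and the 2 libraries that stood apart share high mitochondrial counts, so these values describe the table and carry no p. BDNF and NTF3 had r = 0.766 with each other, and BDNF and SORT1 had r = -0.716.

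Beyond the 6 members, 73 genes of the pathway were listed, and 71 could be tested (MMP3 and MMP7 could not). In ISL1-/- with BFP 3 were called higher and 3 lower than in WT, 8.45% of those tested against 5.59% of all genes, with a median difference of -0.12 over the list and 0.02 over all genes. SORCS2, a sortilin relative that pairs with p75NTR, was higher by 2.62 (SE 0.62, edgeR adjusted p 0.0185), at 45.7 CPM ± 6.36 (SD, n = 3) against 7.41 ± 3.13 (SD, n = 2). SH2B1, an adaptor of Trk receptors, was higher by 1.29 (SE 0.30, edgeR adjusted p 0.0153), and MAPK3, the kinase ERK1, by 1.06 (SE 0.27, edgeR adjusted p 0.0287). RIPK2, a kinase that binds the death domain of p75NTR, was lower by -1.28 (SE 0.23, edgeR adjusted p 0.00252), a call kept in all 29 alternatives. The response genes EGR2 and SPRY2 were lower by -1.47 (SE 0.35) and -1.12 (SE 0.25), with edgeR adjusted p of 0.0197 and 0.0132. Each call of these 6 genes other than RIPK2 was lost without WT with BFP replicate 1, and those of SORCS2, SH2B1, MAPK3 and EGR2 also without WT with BFP replicate 3 (edgeR adjusted p up to 0.229). SH2B1, MAPK3, EGR2 and SPRY2 were lost without ISL1-/- with BFP replicate 3 as well, EGR2 without replicate 2 and MAPK3 without replicate 1 or without the filter (up to 0.110 in edgeR).

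PDX1-/- with BFP had the most pathway calls, 7 higher and 5 lower than WT with BFP, 16.9% of those tested against 9.68% of all genes. Without both libraries that stood apart they were 19 and 15, 47.9% of those tested against 27.6% of all genes in that fit. ARC, a synaptic gene that neuronal activity and BDNF induce, was higher by 3.07 (SE 0.70, edgeR adjusted p 0.00958), and SORCS2 by 2.89 (SE 0.63, edgeR adjusted p 0.00721). MAPK3 was higher by 1.64 (SE 0.28, edgeR adjusted p 0.00160). SPRY2, an inhibitor of signalling by receptor tyrosine kinases, was lower by -1.57 (SE 0.25, edgeR adjusted p 0.00101). The calls of MAPK3 and SPRY2 were kept in all 29 alternatives, and those of ARC and SORCS2 were lost without WT with BFP replicate 1 or 3 (edgeR adjusted p up to 0.112). Genes that act on proneurotrophins were among the lower ones: PLG, the precursor of plasmin, by -2.98 (SE 0.85, edgeR adjusted p 0.0333) and the convertase gene PCSK5 by -1.57 (SE 0.47, edgeR adjusted p 0.0442). PLG was lost without PDX1-/- with BFP replicate 2 or 3 or either WT library with BFP, and PCSK5 in 17 of 29 alternatives (up to 0.235 in edgeR).

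In PAX6-/- with BFP 4.23% of the pathway genes tested were called against 5.51% of all genes. Of these 1 was higher than in WT, SH2B1 (1.14, SE 0.29, edgeR adjusted p 0.0305), and 2 lower, RIPK2 (-0.95, SE 0.23, edgeR adjusted p 0.0213) and SPRY2 (-0.90, SE 0.25, edgeR adjusted p 0.0449). SH2B1 and RIPK2 were each lost in 6 of 29 alternatives and SPRY2 in 17 (up to 0.374 in edgeR). With the ISL1 vector none was called higher in ISL1-/- than in WT, and 3 were lower, 4.23% of those tested against 3.72% of all genes. Of these EGR2 was at -2.20 (SE 0.36, edgeR adjusted p 0.00201), kept in all 29 alternatives, and RIPK2 at -0.96 (SE 0.23, edgeR adjusted p 0.0247), lost in 6. The third was NTF4, the gene of NT-4, which had 0.735 and 0.792 CPM in WT and at most 0.0922 CPM in ISL1-/-. Its difference was -4.12 (SE 1.04, edgeR adjusted p 0.0337), lost without any of these 5 libraries. In PAX6-/- 3 were called as well, all lower (4.23% against 3.56% of all genes), namely SORCS3 (-1.93, SE 0.33, edgeR adjusted p 0.00315), VGF (-1.48, SE 0.39, edgeR adjusted p 0.0428) and SPRY4 (-1.40, SE 0.34, edgeR adjusted p 0.0301), lost in 1, 19 and 5 of 29 alternatives. In PDX1-/- edgeR called 0, where 0.634% of all genes were called, with 7 at an unadjusted p under 0.05, and DESeq2 and limma voom called 0 as well. Without both libraries that stood apart 6 were called in edgeR (8.45% against 6.66% of all genes). For the ISL1 vector edgeR called no pathway gene in WT or ISL1-/-, with 3 and 11 at an unadjusted p under 0.05, while DESeq2 called 0 and 2 and limma voom 3 and 7. It lowered 1 in PAX6-/-, SORCS3 (-1.82, SE 0.31, edgeR adjusted p 0.0143), another sortilin relative. That call was lost without PAX6-/- with BFP replicate 1 or 3 or PAX6-/- with ISL1 replicate 1 (up to 0.0984 in edgeR) and on the compared groups alone (0.525 in edgeR). With the block for the description number 0 pathway genes were called higher and 7 lower in PAX6-/-, 9.86% of those tested against 2.23% of all genes. In PDX1-/- the vector raised 1 and lowered 8, 12.7% of those tested against 12.5% of all genes, and without PDX1-/- with ISL1 replicate 4 it raised 0 and lowered 1 (1.41% against 2.41% of all genes). Without both libraries that stood apart, they were 3 and 7 (14.1% against 8.92% of all genes). ARC (-3.23, SE 0.71, edgeR adjusted p 0.00860) and SORCS2 (-2.32, SE 0.61, edgeR adjusted p 0.0218) had lower levels with the ISL1 vector in PDX1-/-, and both calls were lost without replicate 4 (edgeR adjusted p 0.119 and 0.262), that of SORCS2 also without PDX1-/- with BFP replicate 1 (0.0646 in edgeR). SHC4, an adaptor of the Shc family, was lower by -1.52 (SE 0.32, edgeR adjusted p 0.00627), lost without replicate 4 (edgeR adjusted p 0.0609). All 3 of these calls were also lost with the description block and on the compared groups alone (up to 0.281 in edgeR) and under limma voom (adjusted p up to 0.806). NTF4 had 0.106 and 0.800 CPM with the ISL1 vector in PDX1-/- and at most 0.0831 CPM with BFP. It rested on 27 reads or fewer, and the call (3.61, SE 1.12, edgeR adjusted p 0.0434) was lost in 14 of 28 alternatives.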

How the data were processed

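Per the file headers, the authors deposited raw read counts per gene and library, in the layout of featureCounts. The submitters' processing notes name STAR 2.7.11b, featureCounts 2.1.1 and GRCh38. How multi-mapped reads and strand were handled, and which annotation was used, is not given in the sources used here. ANK2, whose line is split into 3 in the table, was left out, so 62699 genes were used, all matched to a symbol. Libraries were made with SMART-Seq v4, per the labels' protocols.

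Counts were scaled by TMM and tested with the quasi-likelihood test of edgeR 4.0.16 in R 4.3.3, with 1 model of all 21 libraries, a coefficient per group and no block. A filter (filterByExpr, minimum 10 counts, total 15) kept 25884 genes, with a common biological coefficient of variation of 0.334. The Benjamini-Hochberg adjustment ran over all genes tested within a comparison, and a gene was called at an adjusted p under 0.05. The SE is the absolute log2 fold change divided by the square root of F, and log2 fold changes use a prior count of 0.125. Comparisons that share a group share its libraries, so their results are not independent. On simulated data with 25412 genes, for ISL1-/- against WT with BFP, the test called 20% of 2-fold, 80% of 4-fold and 90% of 8-fold changes. The changed genes were drawn from those above 1 CPM in WT with BFP, where the mean of NGFR was 0.787 CPM. Other comparisons were not simulated.

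The members and all gene lists were chosen with earlier results of these data known. Named genes are the 6 members, the called pathway genes that rose most (up to 3) and fell most (up to 3) in each comparison described, and the 5 (NGFR) or 3 genes most like a member. Some genes were left out of the pathway and neural crest lists and are not reported here. Alternatives were RLE size factors, no filter, replicate blocks, only the groups compared, limma 3.58.1 voom with quality weights, DESeq2 1.42.0, leaving out each library, and leaving out both that stood apart. Replicate numbers were taken to pair the samples only for the vector effect in PAX6-/-. There the deviations of the 3 pairs correlated at 0.155 to 0.391 across genes. For the vector effect in ISL1-/- the 3 pairs also correlated above 0, at 0.0990 to 0.293, and were not taken as paired. The main fit used no block in either genotype.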

Additional observations from a re-analysis of the deposited data

Results flagged for a closer look

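The effect of the ISL1 vector on NTRK3, the gene of TrkC, differed between PDX1-/- and WT cells by a test of the difference itself. The effect in PDX1-/- minus that in WT was -2.37 on the log2 scale (SE 0.50, edgeR adjusted p 0.0286), from -2.56 in PDX1-/- and -0.19 in WT. NTRK3 was lower with the ISL1 vector in both PDX1-/- libraries, while the WT values with the 2 vectors overlapped. The call was lost without any of 7 libraries, with the difference then between -3.01 and -1.95 over all fits that left out a library.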

How the results depend on the processing

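Beside each count of members called stands the share of all genes called over the same comparisons and fit. Over the 3 knockouts against WT with BFP, 4 of 17 tests of members were called (6.93% of all genes), NGFR in ISL1-/- not counted. The count was 8 with a replicate block by description number (14.3%), 9 with only the groups compared (25.9%), 10 with limma voom (28.2%), 10 without both libraries that stood apart (24.9%), and 1 to 8 with a library left out. With the ISL1 vector 1 of 17 was called (2.64%), with 3 under the block (6.45%), 2 on only the groups compared (8.36%), 3 under limma voom (13.6%), 4 without both libraries (12.8%) and 0 to 5 with a library left out. For the vector effect 3 of 24 were called (3.32%), with 1 on only the groups compared (2.01%) and 2 to 6 with a library left out. Between knockouts with BFP 4 of 16 were called (3.52%), with 7 under limma voom (18.4%), 8 without both libraries (15.6%) and 1 to 5 with a library left out. Between knockouts with ISL1 2 of 16 were called (2.54%), with 1 on only the groups compared (0.146%), 1 under limma voom (3.59%), 5 without both libraries (4.80%) and 2 to 8 with a library left out. For the vector effect minus that in WT 1 of 18 was called (0.398%), with 2 without the filter (0.418%), 2 in DESeq2 (1.69%), 0 to 5 with a library left out, and 0 under the block (0.187%), limma voom (0.425%) or only the groups compared (0.150%). The causes were not tested, except that PDX1-/- with ISL1 replicate 4 is the only library with the number 4 and so drops out under that block. A replicate block by title number changed no call of a member. The RLE factors changed none either.

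BDNF reversed without both libraries in 4 comparisons of PDX1-/- with ISL1: against WT from 0.53 to -1.66, against PDX1-/- with BFP from 1.20 to -0.97, in ISL1-/- against it from -0.75 to 1.42, and in PAX6-/- against it from -0.45 to 1.19. SORT1 in PAX6-/- against PDX1-/- with ISL1 reversed from -0.06 to 1.62 without PDX1-/- with ISL1 replicate 2, and ranged from -0.83 to 1.62 with a library left out. The cause was not tested. Over all genes, counts of calls also moved: 1448 in ISL1-/- against WT with BFP became 459 to 2780 with a library left out and up to 6878 under limma voom. The count of 3240 for the vector in PDX1-/- became 0 on only the groups compared and 665 to 11519 with a library left out. The median of all genes shifted by 0.13 in that contrast and by 0.11 in PAX6-/-. Groups of 2 and levels near 1 CPM limit what can be told for NGFR outside ISL1-/-.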
